A study of Mus musculus with 2 samples.

Results

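Collagen chain genes encode the polypeptides that wind into the triple helices of collagen. In brain tissue of postnatal day 10 mice they were compared between 1 GPHR F/F;Nes animal and 1 GPHR F/F littermate. The genes were all those on the array whose symbol has the form Col, a number, a and a number, which gave 44 genes of 27 collagen types among 37324 gene names, read by 91 probes. Of the 44, 37 were well above background on both arrays, against 24112 genes of the whole array, 1 was above background only in the GPHR F/F;Nes brain, 1 only in the GPHR F/F brain and 5 on neither array. The membership rule used symbols, not measured values, but the members and the gene lists below were chosen with earlier results of these data known.

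Both samples were total RNA of brain from the C57BL/6J strain at postnatal day 10, labelled with Cy3 and read on 1-colour Agilent arrays. The genotype was GPHR F/F;Nes in the first sample and GPHR F/F in its littermate, so the F/F alleles were shared by both and the element written Nes was carried by the first alone. GPHR is the Golgi pH regulator, an anion channel of the Golgi membrane that mouse Gpr89 encodes. Which exons the F/F alleles flank, what drives Nes and in which brain cells it acts are not stated in the sources used here.

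Collagens are trimers. Each chain carries a long run in which glycine recurs at a fixed spacing, once in each triplet of residues, since only glycine is small enough for the axis of the helix. Chains are threaded into the endoplasmic reticulum, hydroxylated and folded there, carried through the Golgi apparatus and secreted. Fibrillar collagens make cables in skin, bone, vessel walls and the meninges, the coverings of the brain, while type IV collagen makes the net of basement membranes, which in brain surround blood vessels and line the pial surface. FACIT collagens (fibril-associated collagens with interrupted triple helices) decorate fibrils, and transmembrane collagens stay anchored in the cell surface.

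The helix repeat can be read in the array's own probes. Of 56603 probes, 11 held 6 or more codons that start with GG at steps of 9 bases, which is the spacing of glycine codons in a helix, and 4 of these belonged to collagen chain genes. They are shown 5′ to 3′ because they make visible what defines the gene group and because the Col11a2 and Col6a3 probes return below, where probes of 1 gene differ. Capitals mark the codons of the repeat.
Col11a2 (chr17:34189287-34189453, mm9, plus strand): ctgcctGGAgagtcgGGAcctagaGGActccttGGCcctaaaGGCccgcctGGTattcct
Col6a3 (chr1:92689602-92690594, mm9, minus strand): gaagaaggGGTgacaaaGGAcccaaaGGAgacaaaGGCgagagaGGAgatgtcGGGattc
Col5a3 (chr9:20590066-20590795, mm9, minus strand): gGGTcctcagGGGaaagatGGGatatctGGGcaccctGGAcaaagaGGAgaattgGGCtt
Col15a1 (chr4:47283786-47283845, mm9, plus strand): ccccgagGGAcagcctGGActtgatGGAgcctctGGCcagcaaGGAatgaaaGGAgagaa
The Col11a2, Col6a3 and Col5a3 probes are 60 bases long but span 167, 993 and 730 bases of the genome, so each crosses at least 1 exon junction. The first pair was above background on both arrays, and the Col5a3 and Col15a1 probes were not.

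Each difference is the log2 value in GPHR F/F;Nes minus that in GPHR F/F, taken after each array was set to its 75th percentile of probe signals, so 1 log2 unit is a 2-fold difference. The percentile was 173.4 units in GPHR F/F;Nes and 259.5 units in GPHR F/F, which adds 0.58 to each log2 difference. The value after ± is the error that the scanner software gives for the spots, a technical error alone. With 1 array per genotype no difference has a replicate check, no test was possible and no p-value is given. Genes are counted as higher or lower when the difference was at least 2-fold. Signals of different genes are read by different probes, so their sizes do not compare RNA amounts between genes. The summed levels and the bins by level below do combine signals across genes, and the brightest genes weigh most in the sums.

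Gpr89, the gene of GPHR, read 20.0 units in GPHR F/F;Nes and 43.3 units in GPHR F/F, a difference of -0.53 ± 0.22 after scaling from 1 probe. Whether that probe lies inside the stretch that the F/F alleles mark is not stated in the sources used here, so it does not check the label.

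Relative to the 75th percentile, most collagen chain genes had more signal in the GPHR F/F;Nes brain. Of the 37 measured genes, 33 had a difference above 0 and 4 below 0, with a median of 0.80 (1.74-fold), but with scaling to spike-in RNAs 15 were above 0 and 22 below 0. Over all genes, 13730 of 24112 lay above 0 relative to the 75th percentile. The difference reached 2-fold upward in 14 and downward in 1, Col6a4. Over all 24112 measured genes it reached 2-fold upward in 7.93% and downward in 1.37%, with a median of 0.07 and an SD of 0.57. Among the 16484 genes with a RefSeq symbol the shares were 6.51% and 1.67%. In each of the 14 genes the processed signal before scaling was also the higher one in GPHR F/F;Nes, which held for 23 of the 37. From bulk RNA, more cells of a type and more RNA per cell cannot be told apart.

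**Figure D1:**
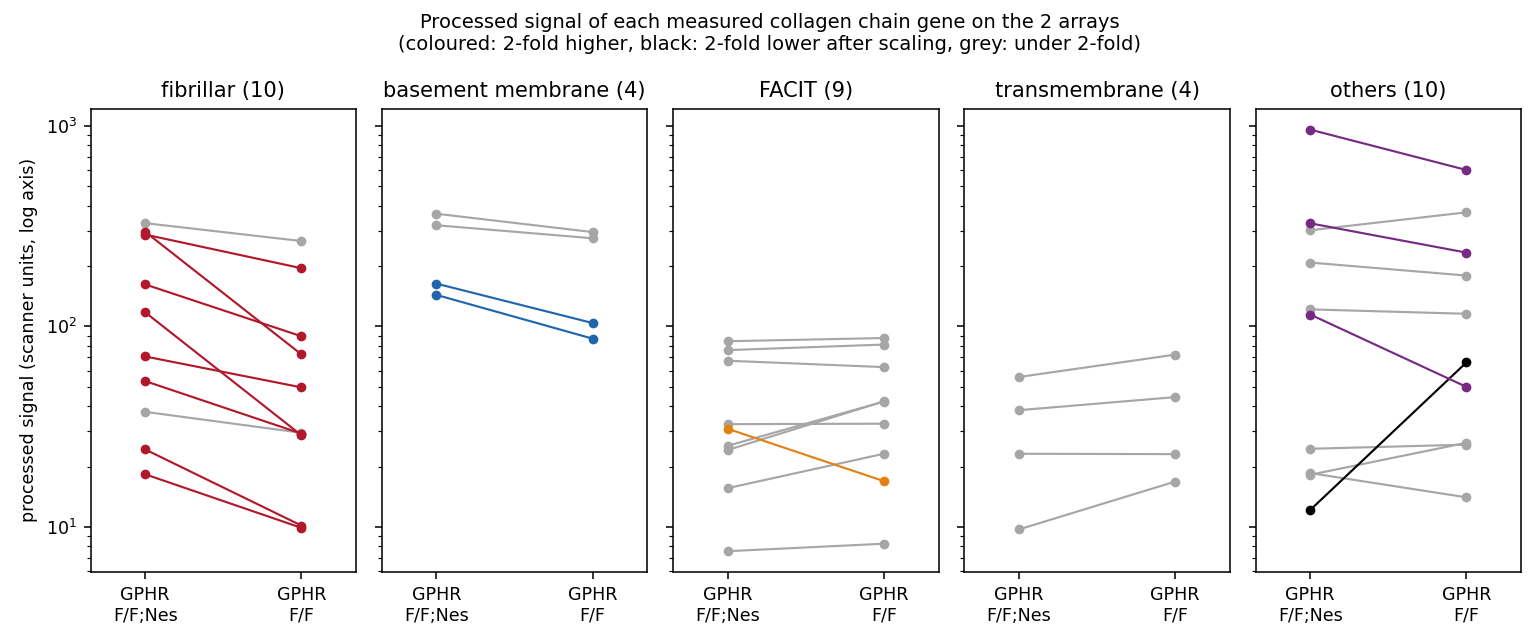
Processed signal (scanner units, log axis) of the 37 collagen chain genes measured on both arrays, GPHR F/F;Nes left and GPHR F/F right, 1 line per gene and 1 panel per class. All 10 fibrillar and 4 basement membrane lines are higher in GPHR F/F;Nes before any scaling, and the black line, Col6a4, is lower there.

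Fibrillar collagens had the highest median of the 5 classes. All 10 measured genes of 11 had a positive difference, between 0.88 and 2.62 with a median of 1.45, and 8 were at least 2-fold higher. Col24a1 was above background on neither array.

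Type III collagen, a homotrimer of the Col3a1 chain, is abundant in vessel walls and meninges. Its Col3a1 probe (chr1:45405589-45405648, mm9) read 117.5 units in GPHR F/F;Nes, against 28.6 units in GPHR F/F, a difference of 2.62 ± 0.21 (6.14-fold). A second probe of the gene was above background only in the GPHR F/F;Nes brain, at 10.6 units against 2.47 units, which gives at least 2.53-fold higher.

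Type I collagen, the main collagen of bone, skin and tendon, joins Col1a1 and Col1a2 chains. Col1a2 read 296.0 units in GPHR F/F;Nes and 72.4 units in GPHR F/F (chr6:4490619-4490678, mm9), a difference of 2.61 ± 0.21 (6.11-fold). A second Col1a2 probe was above background only in the GPHR F/F;Nes brain, where it was at least 3.57-fold higher. Col1a1 averaged 161.8 units in GPHR F/F;Nes and 89.2 units in GPHR F/F over 3 probes, a difference of 1.44 ± 0.08 (2.71-fold). Its probes were at 1.29, 1.32 and 1.71, a wider spread than that error, and the probes at 1.29 and 1.32 overlap. The partner chains of this one molecule were thus both higher, by differences that lay 1.17 apart.

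Col1a1 also shows how tightly repeated spots of 1 array agree. Its probe at chr11:94813115-94813174 (mm9) was printed on 10 usable spots, which lay between 123.7 and 158.1 units (median 136.5) in GPHR F/F;Nes and between 72.6 and 88.8 units (median 80.8) in GPHR F/F. A probe 40 bases upstream had 7 usable spots, at 142.5 to 154.9 units (median 152.4) in GPHR F/F;Nes and 84.0 to 107.5 units (median 91.1) in GPHR F/F. On neither probe did the spots of the 2 arrays overlap. These spots repeat the reading of 1 RNA sample, not the animal.

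Type V collagen sits inside type I fibrils and limits their diameter. Col5a2 averaged 53.3 units in GPHR F/F;Nes and 29.2 units in GPHR F/F (1.45 ± 0.15), with its 2 probes at 1.63 and 1.28. Col5a3 read 286.8 units in GPHR F/F;Nes and 194.9 units in GPHR F/F (1.14 ± 0.20), and Col5a1 read 327.0 and 266.3 units in the same order (0.88 ± 0.20). All 3 chains were higher, and Col5a1 was under the 2-fold line.

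Types II and XI are the fibrillar collagens best known from cartilage, where Col2a1, Col11a1 and Col11a2 chains are combined. Col11a1 averaged 70.8 units in GPHR F/F;Nes and 49.6 units in GPHR F/F (1.09 ± 0.16, probes at 0.99 and 1.20). Col2a1 read 37.5 units in GPHR F/F;Nes and 29.5 units in GPHR F/F (0.93 ± 0.22). In the list of cartilage and bone markers 4 of 8 genes were measured and 0 were 2-fold apart (median -0.63). Sox9, a transcription factor of cartilage that astrocytes also express, was at 0.36 ± 0.14, Sp7 at -0.47 ± 0.20, Acan, the main proteoglycan of cartilage, at -0.78 ± 0.22 and Runx2, a transcription factor of bone formation, at -0.85 ± 0.23. Bglap was above background only in the GPHR F/F;Nes brain and Ibsp only in the GPHR F/F brain, while Comp and Matn1, both cartilage matrix proteins, were above it on neither array. The summed level of the list was 2.42 in GPHR F/F;Nes and 2.67 in GPHR F/F, as multiples of each array's 75th percentile. Without Sox9 it was 1.14 in GPHR F/F;Nes and 1.67 in GPHR F/F. The part of these markers in the result was not tested.

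Col11a2 and Col27a1 crossed the 2-fold line on the mean of 2 probes that disagreed. The Col11a2 probe printed above, in the helix, read 7.14 units in GPHR F/F;Nes and 8.09 units in GPHR F/F (0.40 ± 0.40 after scaling), and the other, which holds the hexamer AGAGAG, read 46.9 and 12.1 units in the same order (2.54 ± 0.28). Col27a1, a fibrillar chain of cartilage, had probes at 2.81 ± 0.28 (50.8 units in GPHR F/F;Nes, 10.9 units in GPHR F/F) and 0.88 ± 0.31 (11.6 and 9.48 units). The lower value came from the probe with a RefSeq mRNA accession and the higher from 1 with an Ensembl transcript accession. After scaling, both probes of each gene pointed the same way, but the Col11a2 helix probe read lower in GPHR F/F;Nes before scaling and its difference was no larger than its error. Over all measured probes, those holding AGAGAG were 2-fold higher in 20.0% of 958, against 6.77% of the other 35759.

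**Figure D2:**
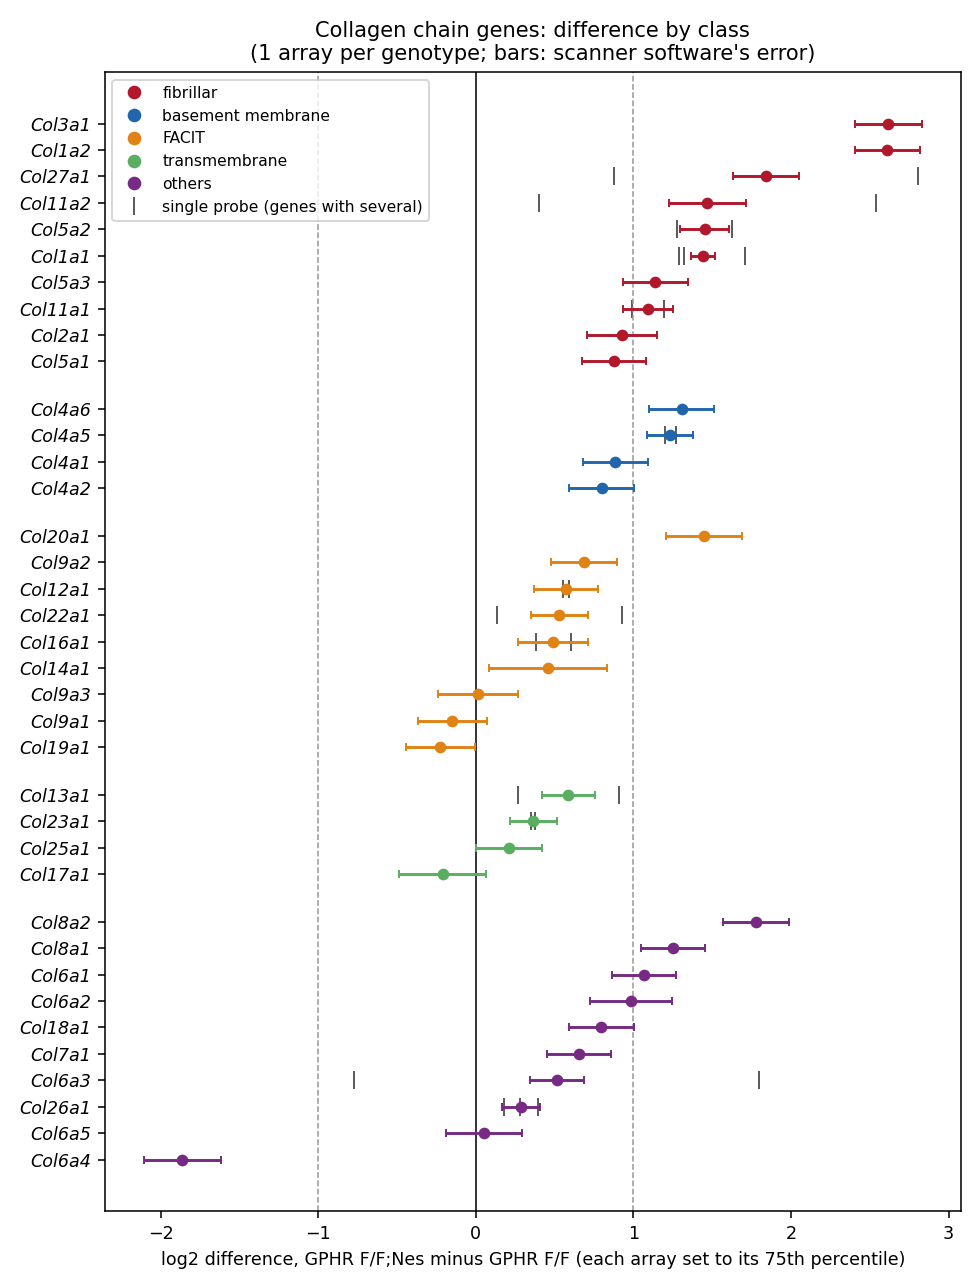
Log2 difference (GPHR F/F;Nes over GPHR F/F) of the 37 measured collagen chain genes by class, with the scanner software's error as bars, and ticks for the single probes of genes with several. Dashed lines mark 2-fold. The fibrillar genes lie between 0.88 and 2.62, while FACIT and transmembrane genes lie mostly between 0 and the 2-fold line.

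The Col3a1 and Col1a2 promoters are shown because these genes had the highest differences of the 37. Each run is the 250 bases before the transcription start in RefSeq (GRCm38.p6), 5′ to 3′, with capitals for matches on either strand to 3 motifs, with no overlap among the matches shown. The motifs were CCAAT for the CCAAT box, then TATAAA for the TATA box, and GGGCGG for the GC box.
Col3a1 (chr1:45311288-45311537, plus strand): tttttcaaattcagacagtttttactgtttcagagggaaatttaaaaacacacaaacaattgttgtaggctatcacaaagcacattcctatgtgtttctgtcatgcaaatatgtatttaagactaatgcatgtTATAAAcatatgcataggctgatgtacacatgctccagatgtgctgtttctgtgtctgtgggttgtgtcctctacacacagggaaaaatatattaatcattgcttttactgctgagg
Col1a2 (chr6:4505368-4505617, plus strand): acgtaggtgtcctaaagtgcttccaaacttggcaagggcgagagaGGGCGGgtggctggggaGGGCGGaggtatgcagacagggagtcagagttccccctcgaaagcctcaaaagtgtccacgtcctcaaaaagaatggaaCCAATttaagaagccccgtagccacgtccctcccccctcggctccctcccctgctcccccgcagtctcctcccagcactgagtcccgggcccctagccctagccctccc
The pair shared none of the searched letters in these windows. Col1a2 held CCAAT at -109 and GGGCGG at -205 and -188 from the start, and Col3a1 held TATAAA at -117. The table had promoters for 35 of the 44 genes, 38 in all. GGGCGG was found in 22 of these 38 (57.9%), and in 33.0% of the table's 32536 promoters. CCAAT was in 34.2% of collagen and 33.8% of all promoters, and TATAAA in 13.2% and 12.3%. A match is a description of letters, not a site shown to be bound.

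Basement membrane collagen was higher in each of its 4 measured chains, with a median of 1.06. Type IV chains are arranged in head-to-head gene pairs, and where both members of a pair were measured they had nearly the same difference. Col4a1 and Col4a2, the chains of every basement membrane, read 364.3 and 319.2 units in GPHR F/F;Nes, against 295.2 and 274.9 units in GPHR F/F. Their differences were 0.89 ± 0.20 and 0.80 ± 0.20, 0.09 apart and both under 2-fold.

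The X-linked pair, Col4a5 and Col4a6, forms nets in a smaller set of basement membranes, smooth muscle among them. Col4a5 averaged 163.3 units in GPHR F/F;Nes and 103.9 units in GPHR F/F (1.23 ± 0.15), with its 2 probes at 1.20 and 1.27. Col4a6 read 143.5 units in GPHR F/F;Nes and 86.8 units in GPHR F/F (1.31 ± 0.21). The 2 genes lay 0.07 apart, and both passed the 2-fold line. The animals differed in sex-linked transcripts: Xist, the X inactivation RNA, was above background only in the GPHR F/F;Nes brain, at 234.1 units against 1.36 units, and the Y-linked Eif2s3y only in the GPHR F/F brain, at 1.93 units against 710.4 units. Over all 600 measured genes of chromosome X the median difference was -0.01 and 42 were 2-fold higher. Sex and genotype cannot be told apart with these 2 samples. The remaining pair, known from kidney filters, was near background. Col4a4 was above it only in the GPHR F/F;Nes brain (10.0 units against 4.52 units, at least 2.38-fold higher), and Col4a3 on neither array.

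Both measured short-chain network genes, those of type VIII collagen, were at least 2-fold higher. They belong to the class called others, and their median was 1.52, against 1.45 for the fibrillar class. Type VIII collagen forms hexagonal lattices, known best from the membrane under the corneal endothelium, and is made by vessel wall cells. Col8a1 read 957.1 units in GPHR F/F;Nes and 602.1 units in GPHR F/F (1.25 ± 0.20). Col8a2 read 114.5 units in GPHR F/F;Nes and 49.9 units in GPHR F/F (1.78 ± 0.21, 3.44-fold). Col10a1, the short chain of growth plate cartilage, was above background only in the GPHR F/F brain, at 3.72 units in GPHR F/F;Nes and 12.2 units in GPHR F/F, so it was at least 1.60-fold higher in GPHR F/F.

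Type VI collagen makes beaded filaments around many cells from Col6a1, Col6a2 and 1 long chain. The Col6a1 signal was 326.4 units in GPHR F/F;Nes and 233.2 units in GPHR F/F (1.07 ± 0.20). Col6a2, its neighbour on chromosome 10, read 18.5 units in GPHR F/F;Nes and 14.0 units in GPHR F/F (0.98 ± 0.26). These 2 neighbours lay on opposite sides of the 2-fold line with a gap smaller than either error.

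For the long chain Col6a3 no single value describes the gene. The helix probe printed above, which also holds AGAGAG, read 45.7 units in GPHR F/F;Nes and 19.7 units in GPHR F/F (1.80 ± 0.24). A probe farther 3′ read 13.1 and 33.6 units in the same order (-0.77 ± 0.25). The third probe was above background only in the GPHR F/F;Nes brain, by at least 2.28-fold. It was the only one of 13 genes with several measured probes in which measured probes pointed in opposite directions, and its mean of 0.51 covers both.

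Col6a4 was the 1 collagen chain gene at least 2-fold lower. It encodes a chain that can stand in for Col6a3, and its gene is next to Col6a5 on chromosome 9. Its measured probe read 12.1 units in GPHR F/F;Nes and 66.1 units in GPHR F/F, a difference of -1.86 ± 0.25 (3.64-fold lower). The second probe of the gene was above background on neither array. Col6a5 read 18.2 units in GPHR F/F;Nes and 26.3 units in GPHR F/F (0.05 ± 0.24 after scaling), and Col6a6, the next gene of the cluster, was not above background. Of its neighbours in the cluster, Col6a5 alone had a value to compare.

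Of the remaining genes in the group called others, none reached 2-fold. Col18a1, whose C-terminal piece is endostatin and which lies in vascular basement membranes, was at 0.80 ± 0.20 (208.0 units in GPHR F/F;Nes, 179.1 units in GPHR F/F). Col7a1, the chain of anchoring fibrils under the epidermis, was at 0.65 ± 0.21. Col26a1 was at 0.28 ± 0.12, with 3 probes between 0.18 and 0.39. Col15a1 and Col28a1 were above background on neither array. Over all 14 genes of the group, 10 were measured, 3 were at least 2-fold higher and 1 lower, with a median of 0.73.

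FACIT collagens differed less. All 9 genes were measured, 7 had a difference above 0, and the median was 0.49, with 1 gene at least 2-fold higher. Before scaling, the signal was the higher one in GPHR F/F;Nes in 2 of the 9, and with spike-in scaling the median was -0.46. That gene, Col20a1, read 30.8 units in GPHR F/F;Nes and 16.9 units in GPHR F/F (1.45 ± 0.24, 1 probe). Col12a1, which coats type I fibrils, averaged 32.5 units in GPHR F/F;Nes and 32.7 units in GPHR F/F, so that its 0.57 ± 0.20 came from the scaling. Col14a1, another fibril coat, was at 0.46 ± 0.37. Col16a1 and Col22a1, which is known from tissue junctions such as muscle to tendon, were at 0.49 ± 0.23 and 0.53 ± 0.18. The Col22a1 probes disagreed, at 0.93 and 0.13. The brighter one, at 0.13, read 544.5 units in GPHR F/F;Nes and 744.0 units in GPHR F/F.

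Type IX collagen joins 3 chains on the surface of cartilage fibrils. Col9a2 was at 0.69 ± 0.21, Col9a3 at 0.01 ± 0.25 and Col9a1 at -0.15 ± 0.22, a spread of 0.84 over 1 molecule. Col9a1 read 25.4 units in GPHR F/F;Nes and 42.2 units in GPHR F/F. Its neighbour on chromosome 1, Col19a1, which neurons are known to make, read 24.2 units in GPHR F/F;Nes and 42.3 units in GPHR F/F (-0.22 ± 0.22). Each of the 2 also had a dimmer probe above background only in the GPHR F/F;Nes brain, at least 1.48-fold higher for Col9a1 and 1.52-fold for Col19a1, opposite to the measured probe.

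Transmembrane collagens showed the smallest median, 0.29, and none of the 4 was 2-fold apart. Col25a1, a neuronal collagen that binds amyloid fibrils, read 55.9 units in GPHR F/F;Nes and 72.3 units in GPHR F/F (0.21 ± 0.21). Col23a1 was at 0.37 ± 0.15, Col13a1, of muscle synapses, at 0.59 ± 0.17 and Col17a1, of hemidesmosomes, at -0.21 ± 0.28. The measured Col13a1 probes were at 0.27 and 0.91. In 3 of these 4 genes the processed signal before scaling was the lower one in GPHR F/F;Nes.

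The 2-fold line cut through a continuous run of values. Just inside it were Col5a3 (1.14), Col11a1 (1.09) and Col6a1 (1.07), and just outside Col6a2 (0.98), Col2a1 (0.93) and Col4a1 (0.89), all with errors of 0.16 to 0.26. At 1.5-fold 23 genes counted as higher and at 3-fold 4, namely Col3a1, Col1a2, Col27a1 and Col8a2.

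Dim genes of the array as a whole leaned toward GPHR F/F;Nes. Of 10 equal bins of all genes by mean level, the dimmest had a median difference of 0.43 with 16.5% at least 2-fold higher, and the brightest -0.02 with 2.16%. Each collagen chain gene was therefore also read against the median of all genes within 0.25 log2 units of its own level. The fibrillar median was 1.20 above that line, basement membrane 1.08, the others 0.60, FACIT 0.33 and transmembrane 0.12, which kept the order of the classes. Col1a2 was 2.62 and Col3a1 2.47 above genes of like level, and Col11a2 1.05.

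**Figure D3:**
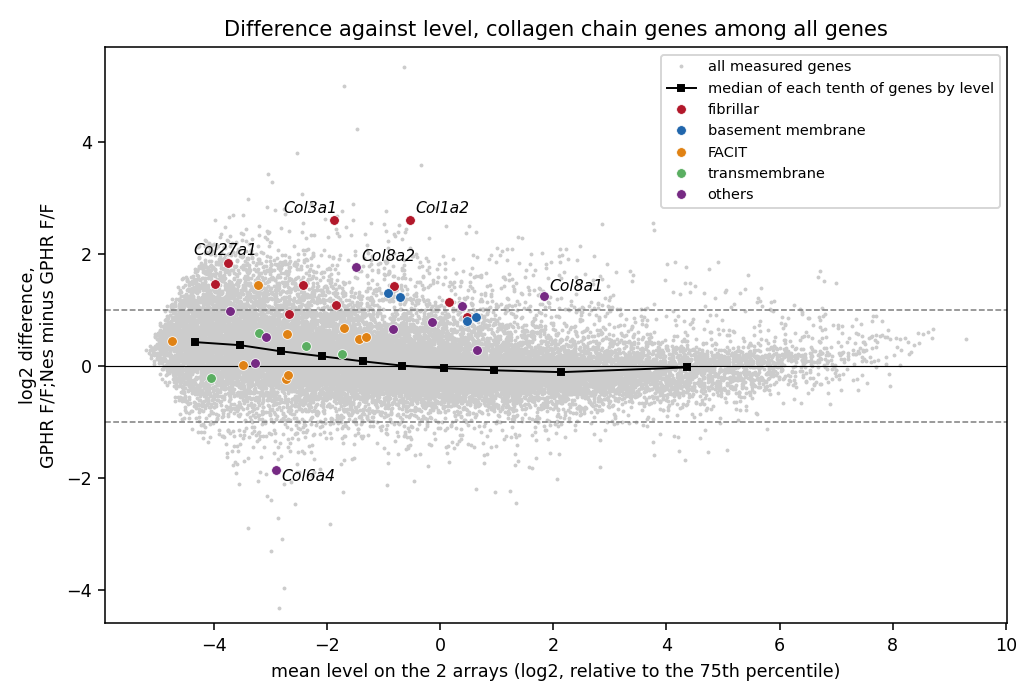
Log2 difference (GPHR F/F;Nes over GPHR F/F) against the mean level on both arrays, with all 24112 measured genes in grey, the collagen chain genes coloured by class and the median of each of 10 equal bins by level in black. The black line runs from 0.43 at the dim end to -0.02 at the bright end, and Col3a1 and Col1a2 lie at 2.62 and 2.61.

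Genes that fold, modify and process collagen chains were higher in part. Of 31 listed genes 30 were measured, 7 were at least 2-fold higher, 0 lower, and the median was 0.45. The counts of this and the next 3 lists stand against 7.93% of all genes higher and 1.37% lower. Lox, the oxidase that starts collagen crosslinking, read 157.6 units in GPHR F/F;Nes and 45.6 units in GPHR F/F (2.37 ± 0.21). Its relatives Loxl2 and Loxl1 were at 1.57 ± 0.15 and 1.20 ± 0.21. Serpinh1, the chaperone HSP47 that binds folded procollagen, read 2163 units in GPHR F/F;Nes and 1100 units in GPHR F/F (1.56 ± 0.20). Fkbp10, a prolyl isomerase of procollagen, was at 1.28 ± 0.20, and Pcolce, which speeds removal of the C-propeptide, at 1.27 ± 0.05. The catalytic prolyl 4-hydroxylase subunits did not move as 1 group, with P4ha3 at 1.03 ± 0.20 and P4ha1 at -0.18 ± 0.16.

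Receptors and collagenases were mostly above 0. Of 17 listed genes 13 were measured, 2 were at least 2-fold higher, 0 lower, and the median was 0.68. Itga1, a collagen-binding integrin subunit, was at 1.51 ± 0.12 over 4 probes, and Mrc2, an endocytic collagen receptor, at 1.34 ± 0.37. Itgb1, the shared beta subunit, was at 0.33 ± 0.14, and the collagen receptor kinases Ddr1 and Ddr2 at 0.75 ± 0.20 and 0.68 ± 0.18. The matrix metalloproteinases Mmp2 and Mmp13 were above background only in the GPHR F/F;Nes brain. Mmp2 read 37.4 units in GPHR F/F;Nes and 6.19 units in GPHR F/F (at least 8.91-fold higher), and Mmp13 16.9 and 5.86 units in the same order (at least 4.02-fold).

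Basement membrane partners of type IV collagen were split by chain. All 16 listed genes were measured, 3 reached 2-fold higher and 0 lower, and the median was 0.66. The vascular laminin chain Lama4 was at 2.24 ± 0.30, Nid2, a linker of laminin and type IV networks, at 1.80 ± 0.21, and Hspg2, which encodes perlecan, at 1.09 ± 0.20. Lama1 was at 0.32 ± 0.20 and Nid1 at 0.69 ± 0.20. Lamb3, an epithelial laminin chain, was at -0.67 ± 0.21.

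Non-collagen proteins of fibrils had the highest median of these lists, 0.81. Of 16 listed genes 14 were measured, 6 were at least 2-fold higher and 0 lower. Postn, a matricellular protein of collagen-rich tissue, averaged 80.0 units in GPHR F/F;Nes and 23.6 units in GPHR F/F (2.35 ± 0.14, 3 probes between 2.27 and 2.45). Ogn, a small leucine-rich proteoglycan, was at 1.72 ± 0.20, Fbn1, of microfibrils, at 1.34 ± 0.15, Fmod at 1.31 ± 0.21, Fn1, fibronectin, at 1.24 ± 0.12 and Sparc at 1.23 ± 0.12. Dcn, which encodes decorin, was at -0.07 ± 0.20.

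**Figure D4:**
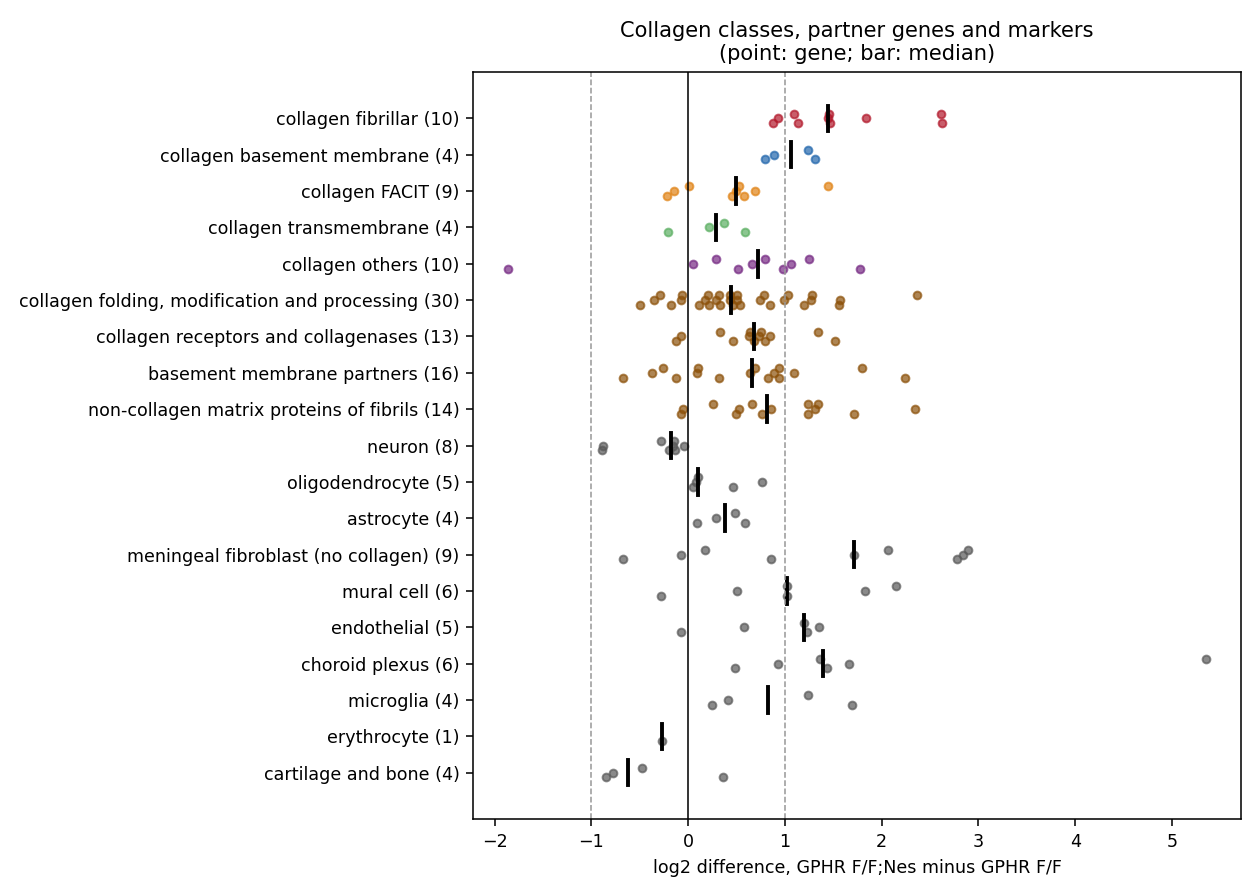
Log2 difference (GPHR F/F;Nes over GPHR F/F) of the measured genes of each collagen class, of 4 lists of partner genes (brown) and of 10 lists of cell type markers (grey), with a bar at each median and the number of measured genes in brackets. Fibrillar collagens have a median of 1.45 and meningeal fibroblast markers 1.72, while all 8 neuron markers lie below 0.

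Some markers of collagen-making and vascular cells were higher as well, while others were near 0 or lower. Their part in the result was not tested. The counts of the marker lists stand against 7.93% of all genes at least 2-fold higher and 1.37% lower. Of 12 meningeal fibroblast markers without collagens, 11 were on the array, 9 were measured and 5 were at least 2-fold higher, with a median of 1.72. Vtn (2.89 ± 0.23), Slc6a13 (2.84 ± 0.28), Igf2 (2.78 ± 0.16), Foxc1 (2.07 ± 0.22) and Ogn were the 5. Whether the listed genes are made by meningeal fibroblasts alone in this tissue was not tested. Foxd1 and Aldh1a2 were above background only in the GPHR F/F;Nes brain, by at least 2.56-fold and 10.4-fold. Lum was at 0.85 ± 0.34, Zic1 at 0.17 ± 0.20, Dcn at -0.07 ± 0.20 and Pdgfra at -0.67 ± 0.16, so the list did not move as a whole. Its summed level, as multiples of each array's 75th percentile, was 23.2 in GPHR F/F;Nes and 17.6 in GPHR F/F. Without Zic1, the brightest gene of the list, the sums were 14.2 in GPHR F/F;Nes and 9.60 in GPHR F/F. Dcn, Lum and Ogn are also in the list of fibril proteins.

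Mural cell markers, of pericytes and smooth muscle, were 2-fold higher in 4 of 6 measured genes (median 1.02), and their summed level was 38.2 in GPHR F/F;Nes and 12.5 in GPHR F/F. Without Tagln, which held most of both sums, they were 7.72 in GPHR F/F;Nes and 3.95 in GPHR F/F. Anpep was at 2.15 ± 0.33, Tagln at 1.83 ± 0.20, Acta2 at 1.02 ± 0.12 and Pdgfrb at 1.02 ± 0.21. Acta2 and Pdgfrb lay just above the 2-fold line, and the 3 probes of Acta2 ran from 0.17 to 1.54. Myh11 was at 0.50 ± 0.25 and Cspg4 at -0.28 ± 0.16, while Rgs5 and Kcnj8 were above background on neither array. Endothelial markers were 2-fold higher in 3 of 5 (median 1.20), with sums of 6.42 in GPHR F/F;Nes and 2.82 in GPHR F/F. Without Kdr they were 0.65 in GPHR F/F;Nes and 0.36 in GPHR F/F. Pecam1 was at -0.07 ± 0.23, and Cldn5, Cdh5 and Tek were above background on neither array. Choroid plexus markers were 2-fold higher in 4 of 6 (median 1.40). Ttr, the transthyretin gene of choroid plexus epithelium, read 715.7 units in GPHR F/F;Nes and 26.2 units in GPHR F/F (5.35 ± 0.22). The sums of that list were 6.54 in GPHR F/F;Nes and 1.25 in GPHR F/F, and without Ttr 2.41 and 1.15 in the same order.

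Markers of neurons, oligodendrocytes and astrocytes had medians nearer 0 than the fibroblast, mural, endothelial and choroid plexus lists. All 8 neuron markers lay below 0 (median -0.17), from Stmn2 at -0.05 ± 0.14 to Rbfox3 at -0.88 ± 0.12 and Slc17a7 at -0.89 ± 0.20. Their sums were 62.5 in GPHR F/F;Nes and 74.4 in GPHR F/F, and without Tubb3 24.3 and 27.9 in the same order. Neuronal RNA, as the tissue label implies, was thus present in both samples. Oligodendrocyte and astrocyte markers had medians of 0.10 and 0.38 with 0 of 5 and 0 of 4 genes past 2-fold. Microglia markers were 2-fold higher in 2 of 4 (median 0.82). Of 5 erythrocyte markers only Hba-a1 was measured, at -0.28 ± 0.06.

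The size and, for many genes, the sign of the collagen difference depended on the reference for scaling. Scaled to 8 probes of spike-in RNAs, the control RNAs of the array kit, whose own log2 signals were higher by 0.15 to 1.30 (median 0.37) in GPHR F/F;Nes before scaling, the all-gene median moved to -0.88, the median of collagen chain genes to -0.15, and 2 genes, Col1a2 and Col3a1, stayed at least 2-fold higher at 1.66 and 1.67. Under that scaling 4 genes were at least 2-fold lower, namely Col6a4, Col19a1, Col17a1 and Col9a1, and 38.3% of all genes were. That scaling subtracts 0.95 from every difference alike, so it leaves the order of the genes as it was, and 15 of the 37 genes were then above 0 and 22 below 0. Of all genes past 2-fold in either direction, 85.3% were higher under the 75th percentile, 56.9% with centring on the median, 68.4% with quantile normalization, 72.4% with loess, 76.1% with normexp and 1.97% with spike-in scaling.

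**Figure D5:**
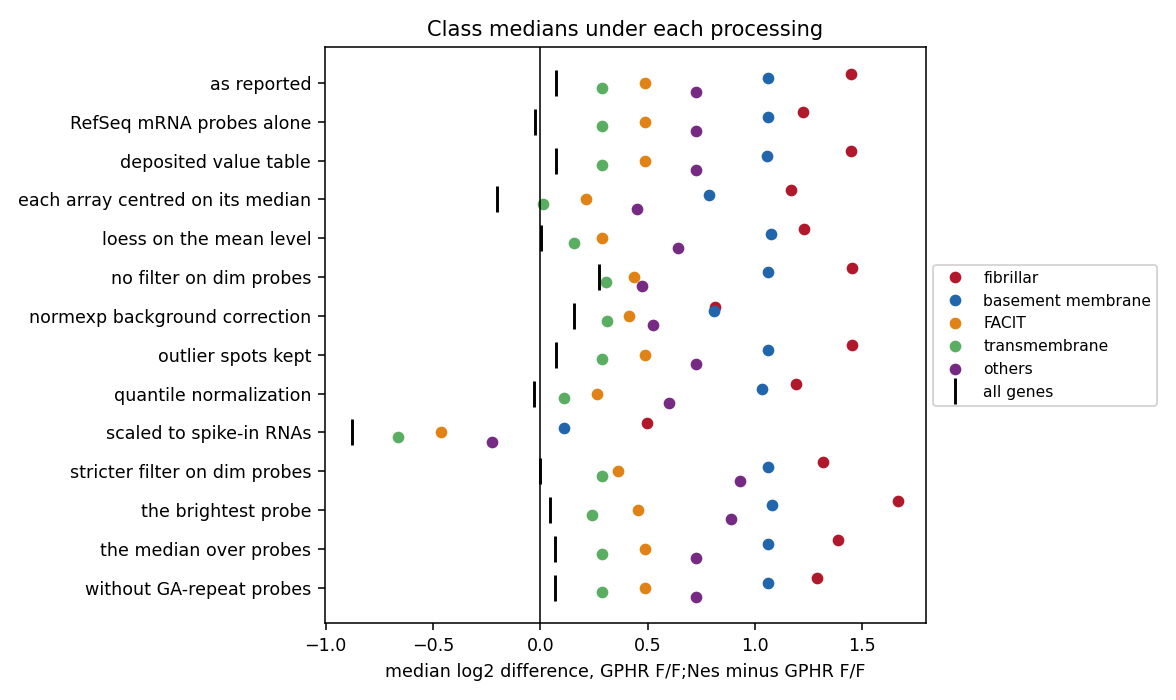
Median log2 difference (GPHR F/F;Nes over GPHR F/F) of each collagen class (coloured points) and of all measured genes (black bar) as reported and under each other processing. The fibrillar median is the highest of the 5 classes in every row, at 1.45 as reported and 0.49 with spike-in scaling.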

How the data were processed

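The deposited scanner output gives an intensity per spot on a linear scale. Per the file headers, the processed intensity was background-subtracted, and deposited flags (other values, 0 or 1) mark outliers and spots well above background. The submitters' processing notes name Agilent Feature Extraction 11.5.1.1. The deposited value table is on the log2 scale and differed from the log2 processed signal by 1 constant per array (-7.43 for GPHR F/F;Nes, -8.01 for GPHR F/F) within 0.001 for 99.9% of probes, with column medians of -2.92 and -3.19. How the constants were set is not stated in the sources used here. Array coordinates are mm9, per the file headers.

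Each array held 62976 spots. Both were on 1 slide and in 1 scan, 69.2% of probes on the GPHR F/F;Nes array were well above background, 67.0% on the GPHR F/F array, and 0 spots were saturated. Spots flagged as outliers were left out (3 of the 109 collagen spots), spots of a probe averaged as log2 processed intensity, and each array's 75th percentile subtracted. A probe counted as measured when well above background on both arrays, and a gene was the mean of its measured probes. A bound sets the brighter signal against the dim one, or against the lowest signal well above background on that array where this is higher (5.06 units in GPHR F/F;Nes, 6.28 units in GPHR F/F). Members kept the array's symbols. Other genes took RefSeq symbols (GRCm38.p6) by accession, which 32993 of 56603 probes matched.

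All members, up to 4 genes with the largest differences in each partner list, lead genes of those lists and Gpr89 were to be named. Loxl1, Pcolce, P4ha3, Mmp13, Lamb3, Sparc and Dcn were named outside this rule. Ctsk (0.85), Mmp8 (0.79) and Lama2 (0.94) were among the 4 largest differences of their lists but are not described above. Marker genes and comparisons of probes within a gene were named after their values were seen. Members and lists were chosen with earlier results of these data known. The number of arrays limits the precision. The calculation was tested on simulated arrays. Python 3.11.15, numpy 2.4.6, pandas 2.3.3, R 4.3.3 and limma 3.58.1 were used.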

Additional observations from a re-analysis of the deposited data

How the results depend on the processing

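No paired analysis was possible because each genotype had 1 array, and for the same reason no replicate could be left out. Of 15 alternatives, 1, leaving out probes that hold AGAGAG, was chosen after seeing the data. The cause of the changes below was not tested. The count of collagen chain genes at least 2-fold higher was 14 as reported. It was 9 with each array centred on its median, 5 with normexp background correction, 2 with scaling to spike-in RNAs, 23 at 1.5-fold and 4 at 3-fold, and stayed between 12 and 15 under the rest. The count lower was 1, and 4 with spike-in scaling and 0 with normexp, where Col6a4 was at -0.41. The overall median of 0.80 became 0.52 with median centring and -0.15 with spike-in scaling. The fibrillar median of 1.45 became 1.17 with median centring, 1.19 with quantile normalization, 1.23 with loess, 0.82 with normexp, 0.49 with spike-in scaling, 1.22 with RefSeq mRNA probes alone and 1.67 with the brightest probe. The basement membrane median of 1.06 became 0.78 with median centring, 0.81 with normexp and 0.11 with spike-in scaling. The FACIT median of 0.49 became 0.21, 0.26 and -0.46 with median centring, quantile normalization and spike-in scaling, and the transmembrane median of 0.29 became 0.012 and -0.66 with median centring and spike-in scaling. For the others, 0.73 became 0.45 with median centring, 0.47 with no filter on dim probes, 0.93 with the stricter filter and -0.23 with spike-in scaling. The partner lists held 18 genes at least 2-fold higher, and 7 with normexp, 3 with spike-in scaling, 38 at 1.5-fold and 5 at 3-fold. Of 472 values of single collagen chain genes, 314 moved by no more than the scanner error and 158 moved more. Among the 472, 34 changed sign, none of them from 2-fold or more. Many of the 314 had no way to move, so the count does not measure how stable the values are. Combining probes differently, without changing the filter, cannot alter a gene with 1 measured probe. Leaving out AGAGAG touched only Col11a2 and Col6a3. Spike-in scaling, in contrast, shifted every difference by -0.95. Without probes holding AGAGAG, Col11a2 was at 0.40 and Col6a3 at -0.77. With RefSeq mRNA probes alone Col27a1 was at 0.88. With median centring the all-gene median was -0.20. Signal over background limits the 7 genes not measured on both arrays, and for the 24 genes with 1 measured probe no second probe checks the value.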
